A study of Homo sapiens with 12 samples.

Results

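The genes described here are CAMK2A, CAMK2B, CAMK2D and CAMK2G, which encode the 4 isoforms of calcium/calmodulin-dependent protein kinase II (CaMKII), and ADCY1, which encodes adenylyl cyclase 1. These 5 genes were selected by symbol from the authors' tables of splicing, polyadenylation and cryptic polyadenylation sites, and were proposed with values of those tables in view, so their splicing values are given as a description. Across the 5 tables used, 4719 named genes were listed in at least 1. Of the 5 genes, 4 were listed, all in the splicing tables and none in the polyadenylation tables, and CAMK2A was listed in no table.

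CaMKII is a kinase of many subunits that is activated by calcium-loaded calmodulin and then phosphorylates itself, which keeps it active after calcium has fallen. It is abundant at synapses and is known for its part in synaptic plasticity. A variable linker between its kinase and hub domains is altered by alternative splicing. Adenylyl cyclase 1 makes cAMP from ATP and is stimulated by calcium and calmodulin, so that it couples calcium entry to cAMP, protein kinase A (PKA) and the transcription factor CREB.

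The neurons were made from WA01, an established line of human embryonic stem cells, by forced expression of NGN2, a transcription factor that drives neuronal fate. The control cells, labelled WT, received a scrambled short hairpin RNA (shRNA), and the other cells, labelled TDP-43 knockdown, received an shRNA against TDP-43, each for 7 days. TDP-43 is a nuclear RNA-binding protein that holds back the splicing of unannotated (cryptic) exons and is lost from the nucleus in ALS and FTD. Each treatment had 3 RNA-seq and 3 3' end-seq libraries, 12 in all, and the labels do not say whether they came from separate cultures or whether the line was a single clone.

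No value per library and no depth could be used for these genes, so no spread between replicates is given, and each adjusted p-value is the authors' own for a whole cluster. A cluster is a set of introns that share splice sites, and the change of an intron is the change of its share of the cluster's junction reads, on a scale where 1 is the whole cluster. Since the subtracted group is not stated, positive changes were read as higher with TDP-43 shRNA. That reading rests on 2 junctions to an unannotated 3' splice site that ended up to 1000 nt upstream of a premature cryptic polyadenylation site, where the group columns are named: both were positive and all 153 such sites had higher use in the knockdown column. One of the 2 was the STMN2 junction, at 0.449 in the authors' deposited table. If the subtraction ran the other way, every splicing direction below would be reversed. Expression levels, the level of TARDBP and the neuronal markers were not analysed here.

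In ADCY1 an annotated intron lost most of its share to junctions of an unannotated exon. The gene lies on the plus strand of chromosome 7 (RefSeq span 45574140 to 45723116, GRCh38.p14). In its first cluster, the annotated intron from 45622743 to 45648670 (hg38) changed by -0.883 in the authors' deposited table. The junction from the same 5' splice site to an unannotated 3' splice site at 45625299 changed by 0.569 in the authors' deposited table. Another junction, from an unannotated 5' splice site at 45625377 to the annotated 3' splice site, changed by 0.314 in the authors' deposited table. The cluster had an adjusted p of 4.3e-06 in the authors' deposited table. Because shares lie between 0 and 1, the annotated intron held at least 0.883 of the cluster with scrambled shRNA and at most 0.117 with TDP-43 shRNA.

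The new ends enclose an ADCY1 exon of 79 nt, which is not a multiple of 3. It lay 2556 nt from the upstream annotated exon and 23293 nt from the downstream one, 9.9% of the way into the intron. The length counts both end bases. That convention was read from 767 annotated exons in the tables, of which 59.8% had lengths that were multiples of 3 when both ends were counted. The gain of the junction into the ADCY1 exon was the larger of the 2 gains, 0.569 against 0.314 in the authors' deposited table.

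CAMK2B showed the same form of change, with a choice of 2 unannotated 3' splice sites. The gene lies on the minus strand of chromosome 7 (RefSeq span 44217154 to 44326013), 1248127 nt from ADCY1. The annotated intron between 44254607 and 44258872 changed by -0.656, and the adjusted p of the cluster was 2.9e-09, in the authors' deposited table. Junctions from its 5' splice site to unannotated 3' splice sites at 44258610 and 44258514 changed by 0.195 and 0.164 in the authors' deposited table. Both lead to the same unannotated 5' splice site at 44258490, whose junction to the next annotated exon changed by 0.298 in the authors' deposited table. The 2 junctions into the exon thus gained 0.359 together, against 0.298 for the junction out of it.

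The enclosed CAMK2B exon was 121 nt long with the first 3' splice site and 25 nt long with the second, and neither length is a multiple of 3. It lay close behind the upstream exon, at 262 or 358 nt from the annotated 5' splice site in an intron of 4265 nt. By the same reasoning as for ADCY1, the annotated CAMK2B intron held at least 0.656 of its cluster with scrambled shRNA and at most 0.344 with TDP-43 shRNA. In both genes the exon lay in the first 10% of the intron.

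**Figure D1:**
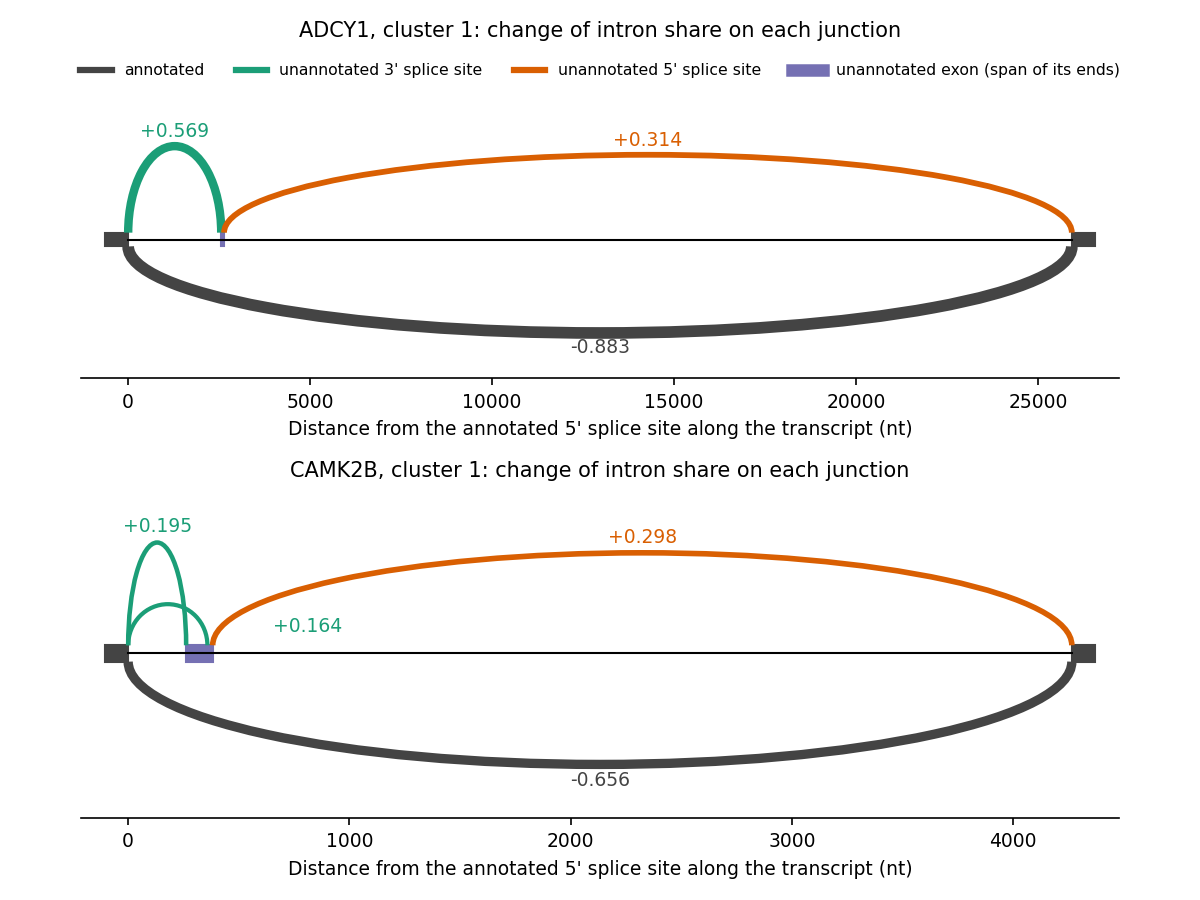
Junctions of the first ADCY1 cluster (top) and the first CAMK2B cluster (bottom), by distance from the annotated 5' splice site in nt; arcs above the line gained share, arcs below lost it, line width grows with the size of the change, and grey boxes are flanking exons drawn without scale. The annotated ADCY1 intron lost 0.883 and the annotated CAMK2B intron lost 0.656 of their clusters, and each unannotated exon sits near the start of the intron.

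Among all listed splicing changes these were large. Of 7159 annotated introns in the authors' deposited table, the fall of the ADCY1 intron ranked 2 and that of the CAMK2B intron 12. By the largest change of any intron, the ADCY1 cluster ranked 2 and the CAMK2B cluster 15 of 2994 clusters. By adjusted p in the authors' deposited table the order of the genes was the other way round, with CAMK2B at rank 53 and ADCY1 at rank 185. An unannotated exon inside an annotated intron was found in 766 of the 2994 listed clusters (25.6%), and in 3 of the 8 clusters of the genes described here (1 each of ADCY1, CAMK2B and CAMK2D). Where 1 of the 766 had several spanning annotated introns, that with the lowest change was taken, which favours falls. The median of these changes was -0.019, with ADCY1 at rank 1 and CAMK2B at rank 7 by size of the fall. In that order ADCY1 was followed by EPB41L4A at -0.871 and INSR, the insulin receptor gene, at -0.856 in the authors' deposited table. The neighbours of CAMK2B were ACTL6B at -0.716 and SLMO1 at -0.655 in the authors' deposited table. These 4 genes were named after their values were seen, and with no error for any change, neighbours in this order cannot be told apart.

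A minority of such exons lay in the first 10% of the intron, as those of ADCY1 and CAMK2B did. In nt the ADCY1 exon, at 2556, was not especially near. Those of INSR, SLMO1, ACTL6B and EPB41L4A lay at 706, 742, 4376 and 8042 nt. Most such exons shared a length that is not a multiple of 3. From each cluster 1 exon was taken, the shortest inside the spanning intron with the lowest change. Of these 766 exons, 118 (15.4%) lay in the first 10% of the intron and 325 (42.4%) had a length that is a multiple of 3. Among the 150 clusters whose spanning intron was lower by at least 0.1, these were 29 (19.3%) and 59 (39.3%). The junction into the exon had the higher change of its 2 junctions in 347 of the 766 and 62 of the 150. For CAMK2B only the 25 nt exon entered these counts, with 0.164 on the junction into it and 0.298 on the junction out. CAMK2B was therefore not among those with the higher change on the junction in. Its gain at the other 3' splice site was not added, nor were such gains in other clusters. Whether the exons of ADCY1 and CAMK2B lie between coding exons was not analysed here, so no effect on the reading frame is given. Their sequences and splice sites were not analysed here either.

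**Figure D2:**
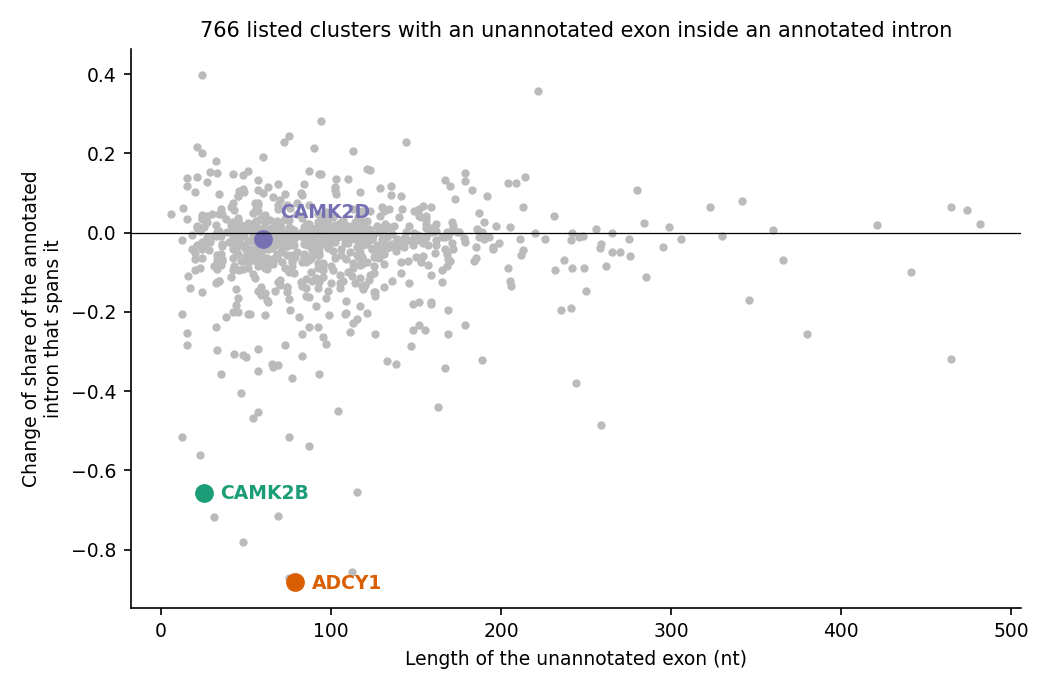
Each point is one of the 766 listed clusters with an unannotated exon inside an annotated intron: x, exon length in nt, and y, change of share of the annotated intron that spans it. Where a cluster had several, the spanning intron with the lowest change was taken, and then the shortest exon inside it. ADCY1 at -0.883 and CAMK2B at -0.656 lie at the lower edge, and CAMK2D at -0.016 lies among the bulk of the points.

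ADCY1 had a second cluster, near the 3' end of the gene, with smaller changes. In the authors' deposited table the annotated intron 45708464-45710528 changed by 0.13 and the annotated intron 45710652-45713693 by -0.087. The intron that skips the exon between them, of 125 nt, changed by -0.043 in the authors' deposited table. The junctions on the 2 sides of that exon thus moved in opposite directions. The cluster's adjusted p was 0.0469 in the authors' deposited table, near the listing limit of 0.05.

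The other clusters of the CaMKII genes were listed with changes of at most 0.029. These 5 clusters held 43 of the 53 listed introns (81.1%). Small changes were common in general, with 65.0% of all 15980 listed introns at 0.03 or less in size. CAMK2D, which encodes the delta isoform, had 1 cluster of 8 introns between 113500511 and 113509638 on the minus strand of chromosome 4 (adjusted p = 0.000113 in the authors' deposited table). The largest fall, -0.023 in the authors' deposited table, was on the annotated intron from 113500511 to 113502936, which borders an exon of 42 nt. The largest gain, 0.017 in the authors' deposited table, was on the annotated intron from 113508268 to 113509638, which borders an exon of 33 nt. Summed over all junctions at its 2 edges, the 33 nt exon changed by 0.025 and 0.017 and the 42 nt exon by -0.023 and -0.003. An exon of 60 nt between them, with ends labelled as unannotated, changed by -0.001 at each edge.

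CAMK2G, which encodes the gamma isoform, had 3 clusters on the minus strand of chromosome 10, more than any other of the 5 genes. The first, between 73849333 and 73860830, had the smallest adjusted p of the 3, at 0.00447 in the authors' deposited table. Its annotated introns changed by -0.029, 0.026 and -0.018 in the authors' deposited table. Skipping of both exons between them, of 66 and 55 nt, changed by 0.007, and skipping of the 55 nt exon alone by 0.014, in the authors' deposited table. In the second cluster, between 73821730 and 73837468, 10 introns changed by -0.017 to 0.015 (adjusted p = 0.0323) in the authors' deposited table. The intron from 73824084 to 73828089, which skips an exon of 69 or 27 nt, was the highest at 0.015 in the authors' deposited table. The junctions to the 3' splice site of that exon, at 73825347, lost 0.022 in sum. In the cluster nearest the 3' end, between 73817554 and 73821682, the intron that skips an exon of 114 nt changed by 0.014 (adjusted p = 0.0402) in the authors' deposited table.

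CAMK2B had a second cluster as well, between 44220901 and 44240707, with 16 introns (adjusted p = 0.0367 in the authors' deposited table). A junction from an unannotated 5' splice site at 44222117 changed by 0.026 in the authors' deposited table, and the other 15 lay between -0.007 and 0. The same gene therefore held one of the largest changes listed and a cluster whose annotated introns changed by at most 0.007 in size.

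**Figure D3:**
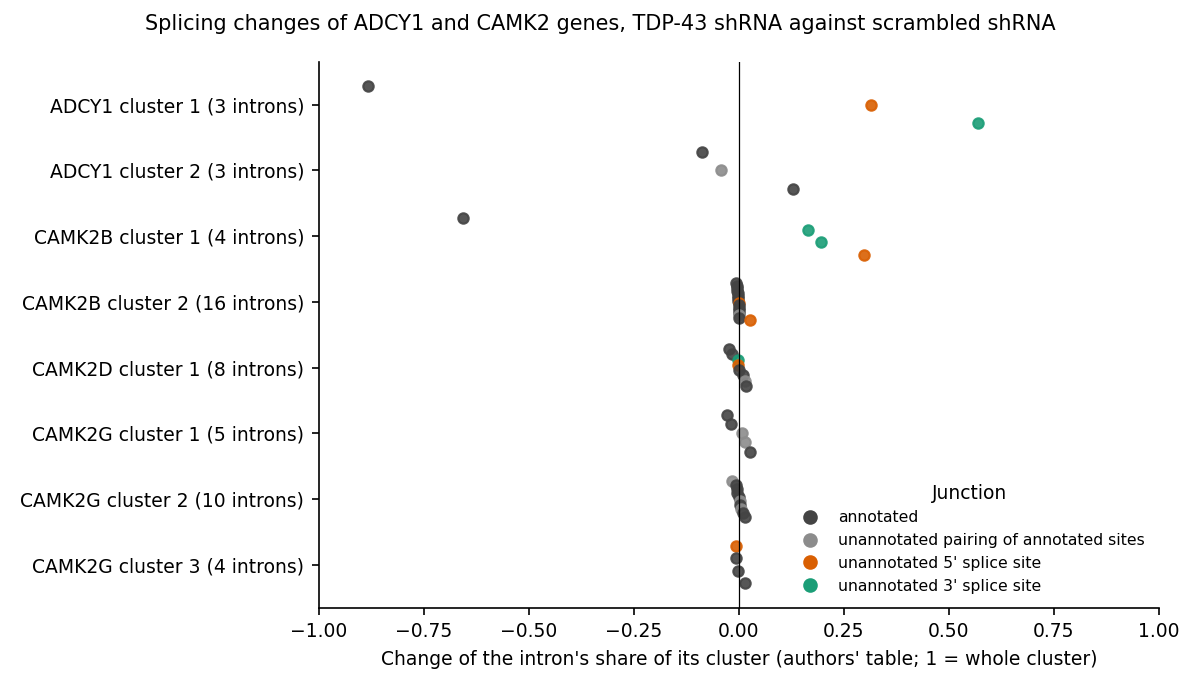
Change of share of every listed intron of ADCY1 and the CAMK2 genes (x, 1 being the whole cluster), by cluster (rows) and kind of junction (colour); points are spread vertically only to separate them. The first ADCY1 cluster runs from -0.883 to 0.569 and the first CAMK2B cluster from -0.656 to 0.298, while the 5 clusters of CAMK2D, CAMK2G and the second of CAMK2B stay within 0.029 of 0.

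Over all 8 clusters, the share with a large change was near that of the table. A largest change of at least 0.1 was found in 3 of the 8, against 989 of all 2994 listed clusters (33%). The median of the largest change was 0.0275 over the 8 clusters and 0.064 over all. All 8 were labelled cryptic by the authors, as were 2658 of the 2994 (88.8%). That label goes to every cluster of a named gene with a junction that is not annotated, so 3 of the 8 carry it only for unannotated pairings of annotated splice sites. Of the 53 introns, 6 (11.3%) had an unannotated 5' splice site, 4 (7.5%) an unannotated 3' splice site and 8 (15.1%) were unannotated pairings. Over all 15980 listed introns these shares were 18.9%, 16.5% and 12.7%. Enclosed exons were counted by their pair of ends, so forms of an exon with alternative splice sites counted separately. Those other than the unannotated ones numbered 16, of which 11 had lengths that are multiples of 3. The unannotated ones numbered 4, of which 2 were forms of the CAMK2B exon, at 25 and 121 nt. Among these 4 only that of CAMK2D, at 60 nt, was a multiple of 3.

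None of the 5 genes was listed with a change of polyadenylation. They were absent from the 2220 genes of the 3' end-seq table, the 841 genes of the RNA-seq polyadenylation table and the 459 cryptic sites. No site of the 3' end-seq or the cryptic table lay inside the RefSeq span of any of them under another name. The tables list changed items only, so this does not show that the genes were measured and did not change. The 4 spliced genes shared the pattern of a splicing change with no listed polyadenylation change with 1841 of the 2410 spliced genes (76.4%).

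The wider pathway was described with a list of 100 other genes of calcium and cAMP signalling in 10 groups, chosen by function but with earlier results of these data known. In all, 38 were listed in at least 1 table, 30 of them for splicing. Which genes were tested is not known, so no share over all genes can be set beside these counts or those of the 10 groups. Of these 30, 19 had the splicing-only pattern of ADCY1 and the CAMK2 genes, against 76.4% of all 2410 spliced genes. Of the 35 clusters of the list genes, 15 had a change of at least 0.1 (42.9%, against 33% of all), and the median largest change was 0.085. A polyadenylation usage index, whose scale is not stated, gives the shift between sites, and the authors call a gene longer or shorter in 3' end-seq and distal or proximal in RNA-seq. In 3' end-seq 14 list genes were longer and 2 shorter, while 84.7% of all 2220 listed genes were longer. The median change of the usage index was 0.191 over the 16 and also over all listed genes. In RNA-seq polyadenylation 4 were distal and 0 proximal, while 95% of all 841 were distal.

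**Figure D4:**
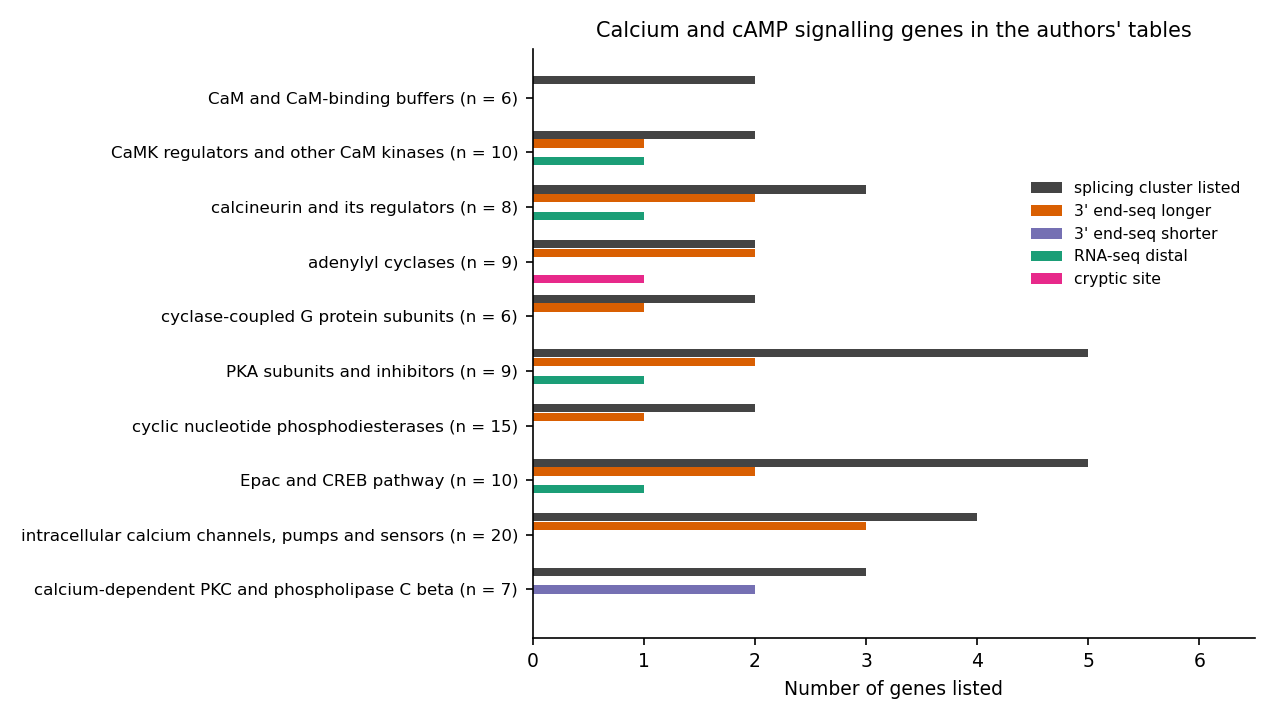
Number of genes (x) of each group of calcium and cAMP signalling genes (rows, with the size of the group) listed for splicing, for longer or shorter 3' ends, for distal polyadenylation in RNA-seq and with a cryptic site. Splicing leads or shares the lead in every group, and the only shorter genes are 2 in the group of protein kinase C and phospholipase C beta. No share over all genes is known for comparison.

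Among the other 9 adenylyl cyclases, ADCY8 was listed in 3 of the 4 kinds of table. ADCY8, like ADCY1, is stimulated by calcium and calmodulin. In ADCY8 an intronic cryptic polyadenylation site at 130901663 on the minus strand of chromosome 8 had a usage of 3.79% with scrambled shRNA and 42.3% with TDP-43 shRNA, by the authors' deposited table. No error is given for either. The same position was the site that gained use in 3' end-seq, where the gene was longer by 0.373 in the authors' deposited table and the site that lost use lay 32566 nt upstream. Longer here is relative to that upstream site only, since the site that gained use is labelled intronic. An unannotated 3' splice site at 130909066 in ADCY8 changed by 0.059 and the annotated intron by -0.059 in the authors' deposited table (adjusted p = 0.00497). ADCY1 had the far larger splicing change and no listed polyadenylation site. ADCY5 was longer by 0.169 and ADCY7 changed by up to 0.211 in splicing in the authors' deposited table, and the remaining 6 cyclases were not listed.

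Of the 10 genes for kinases of the calmodulin-dependent type and their regulators, 3 were listed. DAPK1, a calmodulin-regulated kinase linked to cell death, had a cluster of 15 introns with changes of -0.098 to 0.058 (adjusted p = 4.65e-20) and was longer by 0.233 in the authors' deposited table. CAMKV, a pseudokinase related to CaMKII, was distal by 1.41 in the authors' deposited table. CAMK2N1, an inhibitor of CaMKII, changed by at most 0.019 in splicing in the authors' deposited table.

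Of the 3 genes listed here for the catalytic subunit of calcineurin, the phosphatase that calmodulin activates, PPP3CA and PPP3CB were listed for both splicing and longer 3' ends. PPP3CA was longer by 0.234 and PPP3CB by 0.237 in the authors' deposited table. In PPP3CA, skipping of an annotated exon of 30 nt changed by 0.21 and its flanking junctions by -0.112 and -0.098 in the authors' deposited table. PPP3CB changed by at most 0.042 in splicing in the authors' deposited table.

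Downstream of cAMP, the PKA and Epac groups held the largest splicing change of the list. RAPGEF4 encodes Epac2, an exchange factor that cAMP activates, and the intron that skips its annotated exon of 54 nt changed by -0.568 (adjusted p of the cluster 1.08e-05, both from the authors' deposited table). The junctions into and out of that RAPGEF4 exon changed by 0.298 and 0.27 in the authors' deposited table. Unlike the exons of ADCY1 and CAMK2B it is annotated, and 54 is a multiple of 3. PKIA, a PKA inhibitor gene, was longer by 0.342 and distal by 0.667 in the authors' deposited table, and PKIB was longer by 0.172. In splicing, annotated PKIB introns from 122586007 and 122610535 to the same 3' splice site changed by 0.116 and -0.114 in the authors' deposited table. The adjusted p of that cluster was 1.06e-09 in the authors' deposited table. PKIA changed by at most 0.017 in splicing. GNAS, the gene of the stimulatory G protein subunit that activates the cyclases, was longer by 0.219 in the authors' deposited table. The GNAS sites compared lay 10782 nt apart. CREBBP, a coactivator of CREB, was distal by 0.896 in the authors' deposited table. Its splicing switched by 0.236 to an unannotated 3' splice site 30 nt from the annotated one (adjusted p = 0.0391) in the authors' deposited table. CRTC1, another CREB coactivator, switched by 0.12 to an unannotated 5' splice site and was longer by 0.230 in the authors' deposited table.

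On the calcium side, PRKCB, a calcium-dependent protein kinase C gene, switched by 0.311 between 2 annotated junctions of one 5' splice site (adjusted p = 0.00182) in the authors' deposited table. PLCB1 and PLCB4, phospholipase C beta genes, were the only list members that were shorter, by -0.253 and -0.176 in the authors' deposited table. The site that gained use lay 231605 nt upstream of the site that lost use in PLCB1, and 24023 nt upstream in PLCB4. Shorter is thus relative to a far downstream site only. Both genes were listed for splicing too, with largest changes of 0.102 in PLCB1 and 0.129 in PLCB4 in the authors' deposited table.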

How the data were processed

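Per the labels' protocols, total RNA was made into stranded RNA-seq libraries (SMARTer Pico) and into Quantseq REV libraries of 3' ends. The submitters' processing notes list STAR, SAMtools, Salmon, fastp and DESeq2, with hg38 as the build, and give neither roles nor versions. The splicing tables are named as leafcutter output. For the polyadenylation callers, a name is not given in the sources used here. Values come from 5 tables of the authors.

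The change of intron share (3 decimals) and the change of the usage index are deposited scores; the scale of the index is not stated. Adjusted p-values are those the authors deposited, per cluster or gene, up to 0.05. Cryptic site usage is a deposited fraction, 1 value per group, printed as a percent. A table of normalized counts with 6 numbered columns was not used, because its numbers match no label of a sample or group, so the planned limma test of expression was not run.

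Symbols were matched exactly, with 0 matches through older RefSeq names. Exons of up to 500 nt were built from 2 introns that share the ends of a listed spanning intron, with no listed intron inside. This step was added after the tables were seen. It was tested on simulated plus-strand clusters that held a single exon or none, with both end bases counted by design. That test did not cover the minus strand, exons with alternative splice sites or the choice of length convention. No test was run here. The genes and lists were chosen with earlier results of these data known. List genes were named when listed in 2 or more of 4 kinds of table, or among the 3 largest changes per direction of a table; ADCY5, ADCY7 and CAMK2N1 were named besides. Python 3.11.15, numpy 2.4.6, pandas 2.3.3 and matplotlib 3.10.9 were used.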

Additional observations from a re-analysis of the deposited data

How the results depend on the processing

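Of 18 alternative settings, 6 applied a stricter limit to a count of 0, which cannot move, and say nothing about stability. Of the other 12, 7 kept the count of listed genes, clusters or sites within 1.5 times. With an intron change of at least 0.1, 2 of the 5 genes (ADCY1 and CAMK2B) were counted in place of 4, and 14 of the calcium and cAMP list in place of 30. With an adjusted p up to 0.01, 4 clusters of the 5 genes were counted in place of 8. With a usage index change of at least 0.2, 9 list genes were counted from 3' end-seq in place of 16, and with control usage up to 1 percent, 0 cryptic sites in place of 1. Each of these follows from the stricter limit itself. No paired analysis was possible because the tables used hold no value per library; replicates could not be left out for the same reason. The number of items tested and the depth are not known, so absence from a table is not a negative result.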
